A study of Mus musculus with 2 samples.

Results

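The genes described here encode the MYC, MAX and MXD network, a family of transcription factors with a basic helix-loop-helix and leucine zipper. The 9 members were taken by gene symbol from the 23284 symbols measured, and all 9 were found. They are the activators Myc and Mycn, the shared partner Max, and the antagonists Mxd1, Mxi1, Mxd3, Mxd4, Mnt and Mga. The samples were leukemic stem cells (LSCs) from mice with experimental chronic myeloid leukemia (CML), on the C57BL/6J background. Donor cells were wild type (WT) or carried a targeted disruption of STAP-1 throughout the animal (STAP-1 KO), and both were transduced with human BCR-ABL in a retroviral vector that also encodes green fluorescent protein (GFP). Recipients were C57BL/6SJL mice given a lethal dose of radiation and normal supporting marrow cells along with the donor cells, and GFP+ CD45.2+ LSK cells (negative for lineage markers, positive for Sca-1 and c-Kit) were sorted 11 days after transplantation. Mice were 8 to 14 weeks old, and the number pooled per library is not given in the sources used here. RNA-seq was performed on 1 library per genotype, so no difference has a replicate check, no p-value is given, and the genotype cannot be told apart from the mouse, the sort or the preparation of each library.

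MYC proteins have no DNA binding of their own as single molecules. They pair with MAX, bind the E-box CACGTG, and raise transcription of genes for ribosomes, nucleotides and the cell cycle. MXD proteins, MXI1 and MNT pair with the same MAX, bind the same E-box, and recruit the SIN3 and histone deacetylase corepressor, so that the network is usually described as a balance of activators and antagonists that share 1 partner. MGA also pairs with MAX and belongs to a polycomb complex, PRC1.6. In blood cells MYC drives growth of progenitors, and MXD1 is known for its rise when myeloid cells differentiate.

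The E-box itself stands in the promoters of several members, and these stretches are shown because they are sites of the kind the network reads. Promoter windows from 250 bases before to 50 bases after the start site (RefSeq, GRCm38.p6) were found for 8 members, in 10 windows. The letters CACGTG, which read the same on both strands, occurred in the windows of Max, Mnt and Mxd4, and in 7.15% of all 32851 windows. The variant CACGCG, searched on both strands and therefore also as CGCGTG, occurred in that of Mga and in 9.27% of all windows. The capitals below mark these letters.
Max, chr12:76962226-76962271, minus strand: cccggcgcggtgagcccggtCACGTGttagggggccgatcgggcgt
Mnt, chr11:74830781-74830826, plus strand: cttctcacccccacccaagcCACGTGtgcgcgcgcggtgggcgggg
Mxd4, chr5:34187904-34187949, minus strand: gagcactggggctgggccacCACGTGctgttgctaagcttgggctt
Mga, chr2:119897187-119897232, plus strand: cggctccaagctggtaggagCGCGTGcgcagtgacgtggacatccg
The first base of the match lies 3 bases before the start site in Max, where the match spans that site, 21 before it in Mga, 123 before it in Mnt and 219 before it in Mxd4. The windows of Mxd1, Mxi1, Mxd3 and Mycn held neither form. A match is a description of the letters, and no binding was measured.

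Levels are given as FPKM, a count of fragments divided by exon length and by sequencing depth, as the authors deposited them. The targeted gene Stap1 had 62.0 FPKM in WT LSCs and 0.309 FPKM in STAP-1 KO LSCs, 201-fold lower. From the steps between low values the effective depth was estimated as 7500000 reads for WT and 10470000 for STAP-1 KO. This gives each value an estimated number of reads and a 95% counting interval, which covers counting error only. Of 4 LSK and leukocyte antigens, Kit (468 and 30.1 FPKM, WT first), Ly6a for Sca-1 (285 and 106 FPKM) and Ptprc for CD45 (107 and 38.2 FPKM) were at least 2-fold lower, and Cd34 (281 and 194 FPKM) was lower by less. Of the mast cell and basophil markers, 9 of 10 were at least 2-fold lower, with a summed level of 51460 FPKM in WT LSCs and 5276 FPKM in STAP-1 KO LSCs. All 5 primary granule markers were higher, from 563.6 to 4623 FPKM in sum. The 6 eosinophil markers (3 higher, 1 lower, Ear1 at 0 in WT) summed to 31.4 and 88.04 FPKM, the 7 erythroid markers (1 higher, 3 lower, with opposite calls for the near-identical copies Hba-a1 and Hba-a2, which are uncertain) to 2554 and 1281 FPKM and the 5 megakaryocyte markers (2 lower) to 191.2 and 114.2 FPKM. Of the B cell markers reported here, Cd79b (3.10 and 17.8 FPKM) was at least 2-fold higher, Vpreb1 had 0.476 and 0.853 FPKM, Cd79a had 0 and 0.171 FPKM, and Ebf1 and Pax5 were at 0 in both libraries. The 5 T cell markers (2 higher, 1 lower) summed to 3.89 and 7.41 FPKM. The part of these populations in the values of the network, its partners and its targets was not tested, and in sorted bulk cells a smaller share of one cell type and less RNA per cell cannot be told apart.

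Both activators were higher in STAP-1 KO LSCs, and 5 of the 6 antagonists were lower. Of these antagonists, Mxi1 and Mga turned after a correction for transcript length given further on. Over all genes whose mean reached 1 FPKM the median log2 ratio of STAP-1 KO to WT was -0.04. A lower value was thus common among all genes too. Myc and Mycn passed the 2-fold cut-off upwards, and Mxd1 and Mnt passed it downwards. Max, Mxi1, Mxd4 and Mga were lower by less than 2-fold, and Mxd3 differed by less than its counting interval. All 9 members had at least 0.1 FPKM in both libraries. The 2 members that were at least 2-fold higher are 22.2% of the network, against 12.3% of all 12507 genes above that floor. The 2 that were at least 2-fold lower are also 22.2%, against 22.9% of all genes, so that the share of lower members was near the background. Mxd1 and Mnt moved with the mast cell and basophil markers given above, whose part was not tested.

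**Figure D1:**
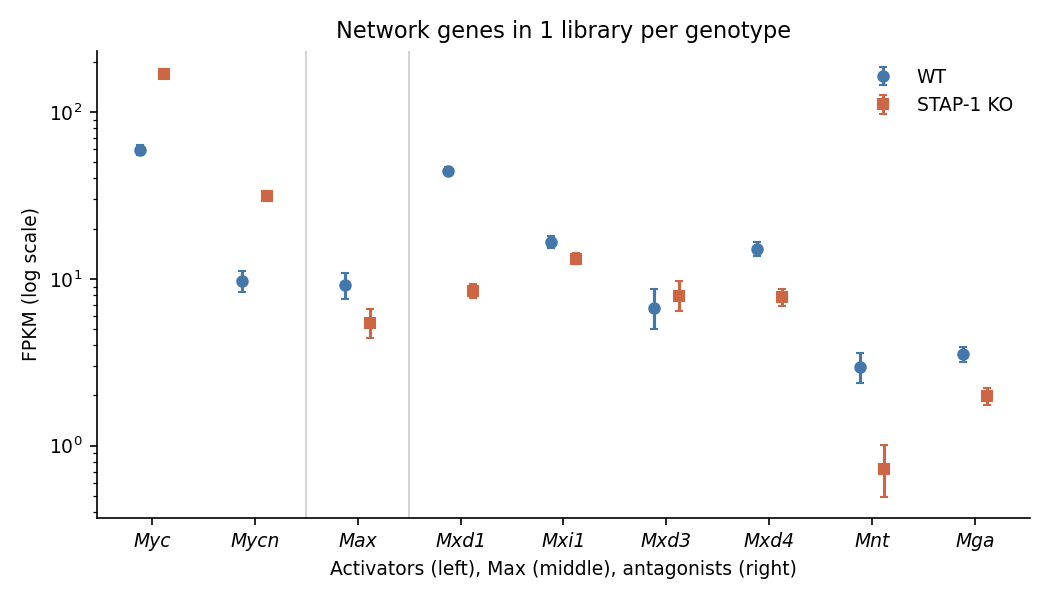
FPKM (log scale) of the 9 network genes in WT LSCs (circles) and the STAP-1 KO library (squares), grouped by role, with 1 library per genotype and bars for the 95% counting interval. Myc and Mycn were higher in STAP-1 KO, where Myc had 169 FPKM, and Mxd1 and Mnt were lower, while the intervals of Mxd3 overlapped.

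Myc, at 61985391 to 61990374 of chromosome 15 (GRCm38, plus strand), encodes c-MYC, the member that most dividing blood progenitors express. It had 59.3 FPKM in WT LSCs (interval from 55.6 to 63.2 FPKM) and 169 FPKM in STAP-1 KO LSCs (from 164 to 174 FPKM). These correspond to about 947 and 3770 estimated reads. The STAP-1 KO level was 2.85-fold higher, a log2 ratio of 1.51 with an interval from 1.41 to 1.62. Log2 ratios are log2((STAP-1 KO + 0.1)/(WT + 0.1)) in FPKM throughout, and 95.9% of the 10974 genes whose mean reached 1 FPKM lay below Myc. Fold values and the intervals of ratios leave out the added 0.1 FPKM, which matters for low genes. Myc was the highest member in both libraries, at percentile 82.0 of those genes in WT and 93.9 in STAP-1 KO.

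Mycn, on chromosome 12 from 12936093 to 12941914 on the minus strand, encodes N-MYC, which is known for its expression in stem cells and early progenitors. It had 9.66 FPKM in WT LSCs and 31.6 FPKM in STAP-1 KO LSCs, from about 179 and 815 estimated reads. The level was 3.27-fold higher, with a log2 ratio of 1.70 (interval from 1.47 to 1.95). Mycn and Myc thus differed in the same direction and by intervals that overlap. Myc had 6.13 times the FPKM of Mycn in WT LSCs and 5.35 times in STAP-1 KO LSCs. In the order of the 9 members Mycn went from the fifth place to the second.

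The remaining family gene, Mycl, which is no member of the list above and encodes L-MYC, went the other way. It is given under its older symbol in the data and had 3.77 FPKM in WT LSCs and 0.610 FPKM in STAP-1 KO LSCs, 6.18-fold lower. These levels rest on about 93.2 and 21.0 estimated reads and are low beside those of Myc. The MYC genes as a family were therefore not uniformly higher.

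Max, on chromosome 12 from 76937269 to 76962201 on the minus strand, encodes the partner that activators and antagonists share. It had 9.16 FPKM in WT LSCs and 5.45 FPKM in STAP-1 KO LSCs, from about 119 and 99 estimated reads. The level was 1.68-fold lower, with a log2 ratio of -0.74 (interval from -1.15 to -0.35). Max was lower while the activators were higher, and the summed FPKM of Myc and Mycn was 7.52 times that of Max in WT LSCs and 36.8 times in STAP-1 KO LSCs. The summed antagonists were 9.76 and 7.34 times Max. These are proportions of mRNA, and protein was not measured by RNA-seq.

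Mxd1, on chromosome 6 from 86647042 to 86669161 on the minus strand, encodes the antagonist known from myeloid differentiation. It had 44.5 FPKM in WT LSCs (interval from 42.3 to 46.8 FPKM) and 8.52 FPKM in STAP-1 KO LSCs (from 7.69 to 9.38 FPKM), from about 1490 and 397 estimated reads. The level was 5.23-fold lower, with a log2 ratio of -2.37 (interval from -2.55 to -2.23), and 5.8% of the genes whose mean reached 1 FPKM had a lower ratio. Mxd1 was second only to Myc in WT LSCs and was in the fourth place in STAP-1 KO LSCs. Its difference of 36.0 FPKM made up 72.9% of the difference in the summed antagonists.

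Mxi1, on chromosome 19 from 53310518 to 53375810 on the plus strand, also binds MAX and SIN3. It had 16.6 FPKM in WT LSCs and 13.1 FPKM in STAP-1 KO LSCs, from about 602 and 664 estimated reads. The level was 1.27-fold lower, with a log2 ratio of -0.34 (interval from -0.50 to -0.18). It took the third place in both libraries and became the highest antagonist in STAP-1 KO, where it made up 32.8% of the antagonist FPKM, against 18.6% in WT.

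Mxd3, on chromosome 13 from 55325168 to 55329823 on the minus strand, is the antagonist known to be expressed in proliferating cells. It had 6.68 FPKM in WT LSCs and 7.91 FPKM in STAP-1 KO LSCs, with a log2 ratio of 0.24 and an interval from -0.24 to 0.76 that includes 0. About 56.0 and 92.7 estimated reads stand behind these levels, so that a small difference was not detectable at this depth. It shares 105 bases with Prelid1 on the other strand, which had 318 and 276 FPKM, and the counting is not stated to use strand, so reads of the shared stretch cannot be assigned. Mxd1 had 6.67 times the FPKM of Mxd3 in WT LSCs and 1.08 times in STAP-1 KO LSCs.

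Mxd4, on chromosome 5 from 34173883 to 34187720 on the minus strand, had 15.1 FPKM in WT LSCs and 7.77 FPKM in STAP-1 KO LSCs. The level was 1.94-fold lower, just under the cut-off, with a log2 ratio of -0.95 (interval from -1.18 to -0.74). About 415 and 298 estimated reads stand behind these levels. In the WT library Mxd4 did not differ from Mxi1 beyond the counting intervals, and in STAP-1 KO LSCs it did not differ from Mxd1 or Mxd3.

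Mnt, on chromosome 11 from 74830920 to 74845725 on the plus strand, encodes the antagonist that is described as present in both resting and cycling cells. It had 2.96 FPKM in WT LSCs and 0.720 FPKM in STAP-1 KO LSCs, from about 97.1 and 33.0 estimated reads. The level was 4.10-fold lower, with a log2 ratio of -1.90 (interval from -2.65 to -1.45). Mnt was the lowest member in both libraries, and in WT its interval overlapped that of Mga.

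Mga, on chromosome 2 from 119897228 to 119969581 on the plus strand, has the longest transcript of the members, with 13931 bases. It had 3.55 FPKM in WT LSCs and 1.98 FPKM in STAP-1 KO LSCs, from about 365 and 285 estimated reads. The level was 1.79-fold lower, with a log2 ratio of -0.81 (interval from -1.07 to -0.61).

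The order of the levels changed between the libraries. In WT, Myc was followed by Mxd1, then by Mxi1 and Mxd4, then by Mycn, Max and Mxd3, and last by Mga and Mnt, where genes named together had overlapping intervals between neighbours. In STAP-1 KO, Myc was followed by Mycn and Mxi1, then by Mxd1, Mxd3 and Mxd4, which overlapped between neighbours, and then by Max, Mga and Mnt. The gene in the whole data with a pattern most like that of Myc, measured as the distance in log2 FPKM over the 2 libraries, was the microRNA gene Mir1931 (58.7 and 168 FPKM), followed by the mitochondrial import gene Chchd4 (60.7 and 164 FPKM) and the nucleotide enzyme gene Dut (56.2 and 159 FPKM). With 2 libraries such likeness is only a matching pair of values. The level of Mir1931 is uncertain, since FPKM divides by length and a microRNA gene is very short.

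Activators were then compared with antagonists within each library, a proportion that does not depend on how the libraries were scaled to each other. Myc and Mycn together had 68.9 FPKM in WT LSCs and 200.5 FPKM in STAP-1 KO LSCs, 2.91-fold higher. The 6 antagonists together had 89.4 FPKM in WT LSCs and 40.0 FPKM in STAP-1 KO LSCs, 2.23-fold lower. The activator to antagonist ratio was 0.771 in WT and 5.01 in STAP-1 KO, so that the summed antagonists exceeded the summed activators in the first library and the reverse held in the second. With geometric means in place of sums, an alternative chosen after seeing the data, the ratio was above 1 in both, at 2.49 and 15.8. The ratio differed 6.50-fold between the libraries, with an approximate counting interval from 5.91 to 7.15. When Mxd1 was left out it was 1.53 in WT and 6.36 in STAP-1 KO, and differed 4.15-fold. The activators made up 41.1% of the FPKM of the network in WT and 81.5% in STAP-1 KO.

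**Figure D2:**
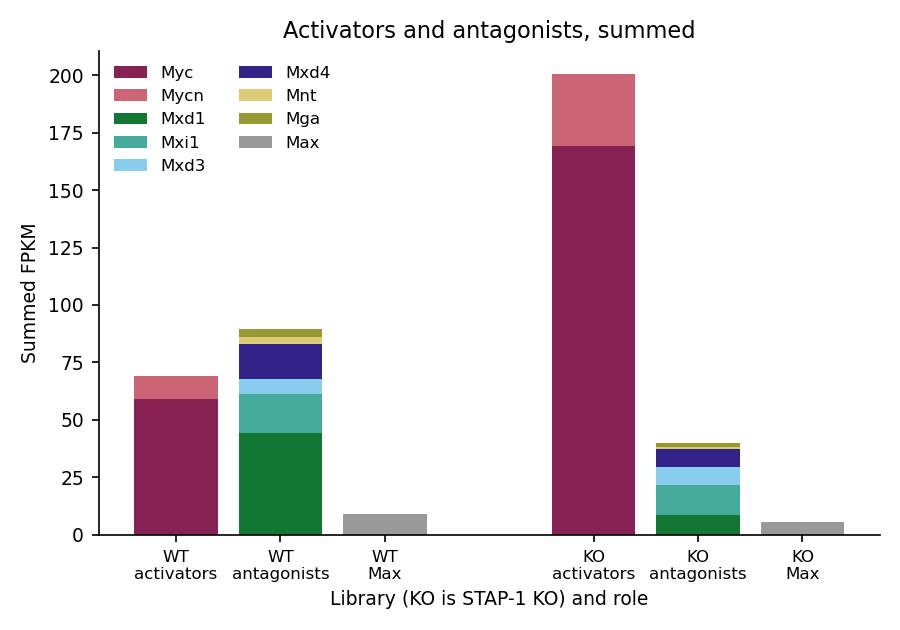
Summed FPKM (bars from 0) of the activators, the antagonists and Max in WT LSCs and the STAP-1 KO library, with each gene as a coloured segment and 1 library per genotype. The activators had 68.9 FPKM in WT and 200.5 FPKM in STAP-1 KO, and the antagonists had 89.4 and 40.0 FPKM, with most of that difference in the Mxd1 segment.

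Single antagonists were set against Myc in the same way. Myc had 1.33 times the FPKM of Mxd1 in WT LSCs and 19.8 times in STAP-1 KO LSCs. For Mnt the values were 20.1 and 235, and for Mga 16.7 and 85.1. For Mxd3 they were 8.87 and 21.4. Myc therefore gained on each of the 6 antagonists. Mycn was below Mxd1, Mxi1 and Mxd4 in WT (0.217, 0.581 and 0.639 times their FPKM) and above all 6 antagonists in STAP-1 KO.

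Transcript length bears on these ratios, because in these libraries the ratio of all genes varied with it. Length was that of the longest annotated transcript of a gene, protein-coding where there was one. This need not be the transcript expressed in these cells, which was not tested. Across 10861 genes whose mean reached 1 FPKM, Spearman's rho of transcript length with the log2 ratio was -0.40, a description across genes that are not independent replicates. For each member the median log2 ratio of the 501 genes nearest in length was therefore taken as a reference. It was 0.32 for Myc, 0.10 for Mycn, 0.34 for Max and 0.52 for Mxd3, whose transcripts are short, and -0.52 for Mxd1, -0.63 for Mxi1, -0.22 for Mxd4, -0.49 for Mnt and -1.04 for Mga. After subtraction the log2 ratios were 1.19 for Myc and 1.6 for Mycn, and both were still past the cut-off. Those of Mxd1 and Mnt were -1.86 and -1.41, also past it. Max was at -1.08, so that it passed the cut-off only beside genes of its own length. Mxd4 was at -0.73. Mxi1 went from -0.34 to 0.29, Mga from -0.81 to 0.23 and Mxd3 from 0.24 to -0.27, so that the sign of these 3 turned. The corrected interval was above 0 for Mxi1, from 0.13 to 0.45, and included 0 for Mga, from -0.03 to 0.43, and for Mxd3, from -0.76 to 0.24. The median of the 6 antagonists was -0.88 before and -0.50 after the subtraction, against -0.04 over all genes whose mean reached 1 FPKM. With the same correction the activator to antagonist ratio differed 4.10-fold.

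**Figure D3:**
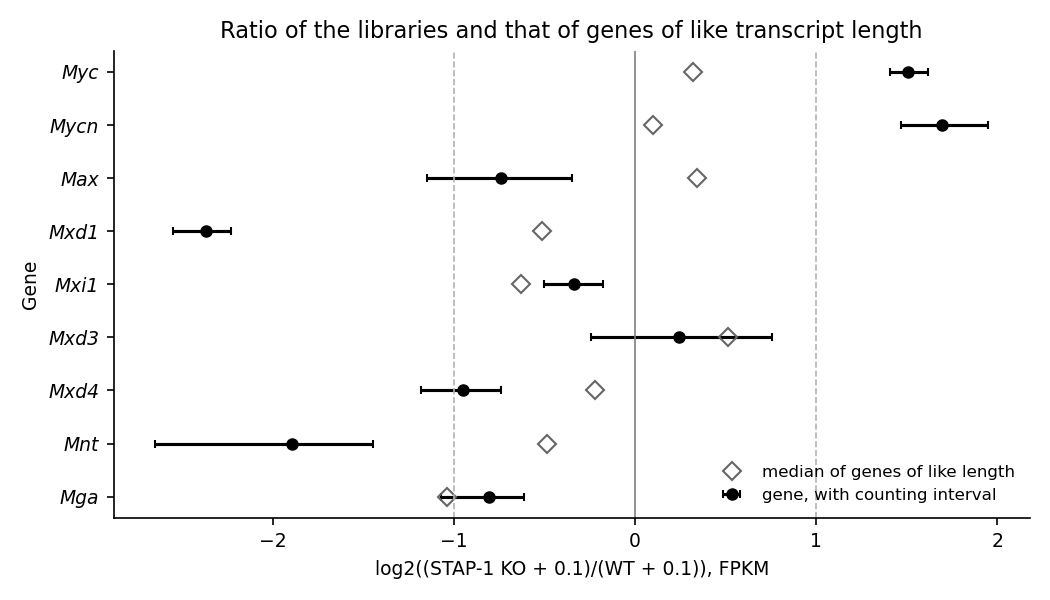
Log2 ratio of STAP-1 KO to WT for the 9 members (points, with 95% counting intervals, 1 library per genotype) and the median log2 ratio of the 501 genes nearest in transcript length (open diamonds), with dashed lines at a 2-fold difference. Myc, Mycn, Max, Mxd1, Mxd4 and Mnt lie farther from 0 than their length reference or on its other side, and Mxi1, Mxd3 and Mga do not.

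The genes that work with the network were read from lists written from general knowledge, with counts past the 2-fold cut-off beside the 12.3% (higher) and 22.9% (lower) of all genes. After the correction for length these shares of all genes were 11.5% and 18.7%. Genes named outside the first of each list are those that make up a small count and were chosen after their values were seen. In the extended network, MLX takes the place of MAX for the glucose-sensing partners MLXIP and MLXIPL. Mlx had 50.7 FPKM in WT LSCs and 48.3 FPKM in STAP-1 KO LSCs, and Mlxip had 24.0 and 17.1 FPKM. Mlxipl was near 0, with 0.0388 and 0.111 FPKM. The counting interval of the log2 ratio of Mlx, from -0.22 to 0.07, included 0.

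With the values as deposited and no correction for length, coactivators that MYC recruits were past the cut-off about as often as all genes. Of 13 genes, 1 was at least 2-fold higher and 3 were at least 2-fold lower, and the median log2 ratio was 0.36. Under upper quartile scaling 3 were at least 2-fold higher, against 13.2% of all genes, since Ruvbl1 and Actl6a, each 1.98-fold higher, then passed the cut-off. The scaffold gene Trrap had 5.37 FPKM in WT LSCs and 1.64 FPKM in STAP-1 KO LSCs, while Ep400, the ATPase of the same complex, had 3.69 and 3.03 FPKM. The acetyltransferase genes Kat5 and Kat2a had 14.3 and 19.96 FPKM and 26.7 and 34.8 FPKM. The others that passed the cut-off were Ep300 (9.04 and 1.86 FPKM) and Crebbp (5.15 and 1.65 FPKM), which encode the p300 and CBP acetyltransferases and were lower, and the helicase gene Ruvbl2 (89.3 and 222 FPKM), which was higher. The 3 that were lower have long transcripts. With the correction for length 3 coactivator genes were at least 2-fold higher, against 11.5% of all genes. Only 1, Ep300, was at least 2-fold lower, against 18.7% of all genes, and the median was 0.57.

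Genes of the corepressor of the antagonists went in both directions, with log2 ratios above 0 in 11 and below 0 in 5. The median over all genes whose mean reached 1 FPKM was -0.04. None of 16 genes of the SIN3 and histone deacetylase complex was at least 2-fold lower, 2 were at least 2-fold higher, and the median log2 ratio was 0.47. The scaffold genes Sin3a and Sin3b had 11.9 and 9.46 FPKM and 125 and 102 FPKM, WT first. Both were lower by less than 2-fold, with intervals of the log2 ratio from -0.52 to -0.14 and from -0.35 to -0.22. After the correction for length Sin3a was at 0.37 and Sin3b at -0.01. The deacetylase genes Hdac1 and Hdac2 had 32.7 and 43.1 FPKM and 117 and 261 FPKM, and Hdac2 and the histone-binding gene Rbbp7 (139 and 297 FPKM) were those past the cut-off. Of the 11 partners of MGA in PRC1.6, 3 were at least 2-fold higher and none was at least 2-fold lower, with a median of 0.43. Pcgf6 had 17.5 and 39.6 FPKM, E2f6 26.3 and 39.3 FPKM, L3mbtl2 18.4 and 23.4 FPKM and Rnf2 29.4 and 33.1 FPKM. Besides Pcgf6, the chromobox genes Cbx1 (15.3 and 48.5 FPKM) and Cbx3 (4.52 and 9.28 FPKM) passed the cut-off. After the correction for length 3 genes of the SIN3 complex were at least 2-fold higher, where Rbbp7 (log2 ratio 0.81) was no longer past the cut-off and Rbbp4 (1.21) and Sap18 (1.16) were. Of the partners of MGA 2 were then higher, where Pcgf6 (0.90) and Cbx3 (0.72) were under the cut-off and Tfdp2 (1.02) was past it.

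Genes that act on the stability of the MYC protein went in both directions, with 3 of 15 at least 2-fold higher, 2 at least 2-fold lower and a median of -0.04. Fbxw7, the ubiquitin ligase subunit that marks MYC for degradation, had 21.7 FPKM in WT LSCs and 3.69 FPKM in STAP-1 KO LSCs, 5.87-fold lower. Skp2, another ligase subunit, had 8.82 and 18.8 FPKM and was higher. Huwe1 had 4.49 and 2.23 FPKM and Stub1 89.5 and 129 FPKM. After the correction for length Fbxw7 was still past the cut-off, with a log2 ratio of -2.04, and Huwe1 was not, with 0.06. The mitotic kinase genes Aurka (49.4 and 124 FPKM) and Plk1 (53.2 and 108 FPKM) were the other ones past the cut-off upwards. After the correction Plk1 was under it, with 0.72, the count of higher genes was 3, and the median of the list turned to 0.26.

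Targets of MYC in ribosome biogenesis had log2 ratios above 0 in 20 of 24 genes, against a median of -0.04 over all genes whose mean reached 1 FPKM. Of the 24, 12 were at least 2-fold higher and 1, Utp20, was at least 2-fold lower, with a median log2 ratio of 0.99. The nucleolar genes Ncl (120 FPKM in WT LSCs and 259 FPKM in STAP-1 KO LSCs), Npm1 (213 and 517 FPKM), Fbl (4.49 and 13.1 FPKM) and Nop56 (101 and 210 FPKM) passed the cut-off, and Nop58 (75.7 and 143 FPKM) did not. The reads of Npm1 can be shared with processed copies and its value is uncertain. With the correction for length 4 of the 24 genes were at least 2-fold higher, near the 11.5% of all genes after the same correction, and none was at least 2-fold lower, and the median was 0.65. Ncl (2.12) and Nop58 (1.95) were then past the cut-off on the log2 scale, and Npm1 (0.84), Fbl (0.95) and Nop56 (0.76) were under it. The corrected values of Ncl and Nop58 rest on longest annotated transcripts of 8202 and 9507 bases, against a list median of 2700. If shorter transcripts were expressed, the subtracted reference would differ, which was not tested.

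Metabolic targets were divided. Of 20 genes, 5 were at least 2-fold higher and 2 were at least 2-fold lower, with a median of 0.61. The polyamine genes Odc1 (38.8 and 77.4 FPKM) and Srm (219 and 472 FPKM) were near or past the cut-off upwards, whereas the glycolytic genes Ldha (2540 and 1990 FPKM) and Pkm (522 and 367 FPKM) were lower by less than 2-fold. Eno1 had 9.62 and 12.9 FPKM and is uncertain, since a near-identical copy of the gene could share its reads. The 2 past the cut-off downwards were Cad (38.2 and 9.13 FPKM), for pyrimidine synthesis, and the amino acid transporter gene Slc7a5 (147 and 46.0 FPKM). Besides Srm, the genes past it upwards were Paics, Impdh2, Shmt1 and Phb, of which Shmt1, for serine and glycine metabolism, had 23.9 and 81.3 FPKM. After the correction for length the median was 0.37 and 4 genes were at least 2-fold higher, where the log2 ratios of Srm (0.59) and Paics (0.92) were under the cut-off and that of Ppat (1.2) was past it.

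Among 15 targets in the cell cycle, 4 were at least 2-fold higher and 1, E2f2 (7.83 and 1.52 FPKM), was at least 2-fold lower. The median over the 14 whose mean reached 1 FPKM was 0.66. Cdk4 had 276 FPKM in WT LSCs and 636 FPKM in STAP-1 KO LSCs, while the cyclin genes Ccnd1 (1.38 and 1.01 FPKM), Ccnd2 (72.5 and 51.6 FPKM) and Ccne1 (41.0 and 62.7 FPKM) and the phosphatase gene Cdc25a (25.6 and 28.6 FPKM) differed by less than 2-fold. Besides Cdk4 those past the cut-off upwards were Cks2, Mcm5 and Mcm7. After the correction for length the log2 ratios of Cdk4 (0.85) and Cks2 (0.82) were under the cut-off and that of Mcm6 (1.41) was past it, as was that of Tert (1.11), which rests on 0.290 and 0.534 FPKM and about 8.93 and 23.0 estimated reads. The median, which leaves out Tert, was 0.70.

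Genes that MYC represses, often through MIZ1, were mostly lower. Of 12 genes, 7 were at least 2-fold lower, as were 9 of 10 mast cell and basophil markers, whose part was not tested, and 1, Ndrg2, was at least 2-fold higher, with a median of -1.11. The inhibitors of cyclin-dependent kinases Cdkn1a (217 and 66.4 FPKM), Cdkn1b (1.58 and 0.739 FPKM) and Cdkn2b (55.2 and 4.43 FPKM) passed the cut-off downwards, and Cdkn1c (0.944 and 1.30 FPKM) and Cdkn2c (5.35 and 6.81 FPKM) did not pass it. Cdkn2b was the farthest, 12.4-fold lower. After the correction for length the median of this list was -1.07, and Cdkn1b was under the cut-off, with a log2 ratio of -0.515. It also fell out with a floor of 1 FPKM, which left 6 genes at least 2-fold lower.

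**Figure D4:**
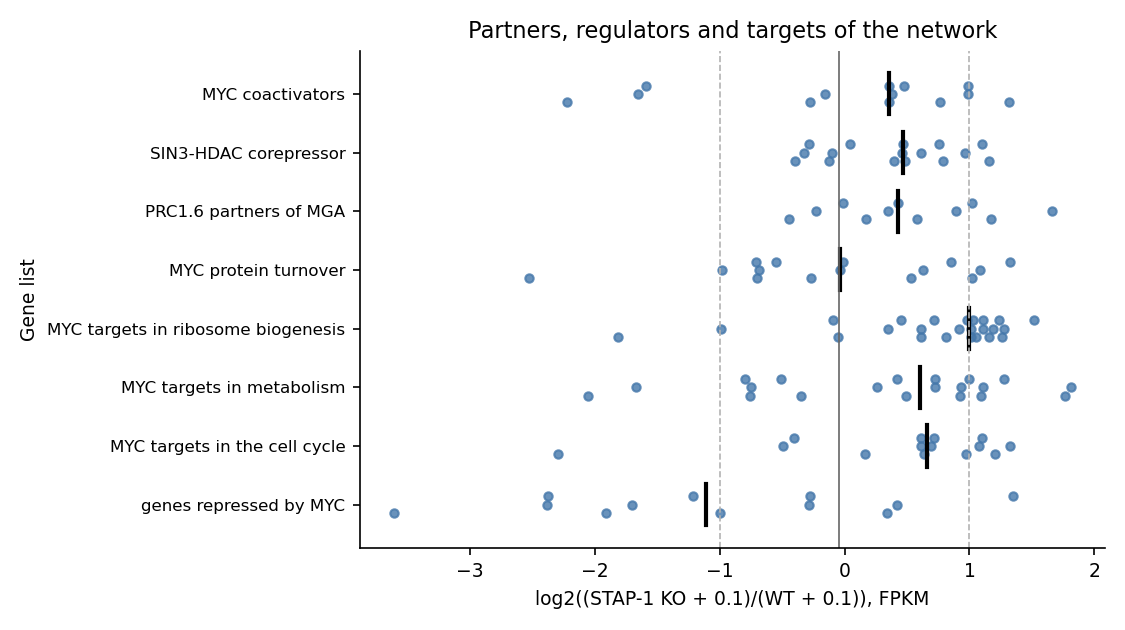
Log2 ratio of STAP-1 KO to WT (points, 1 gene each whose mean reached 1 FPKM) in 8 lists of partners, regulators and targets of the network, with the list median (black bar), the median of all genes (grey line) and a 2-fold difference (dashed lines). Before the correction for length, the highest median is that of the targets in ribosome biogenesis, at 0.99, which is 0.65 after it, below the 0.70 of the cell cycle targets. The lowest is that of the genes repressed by MYC, at -1.11.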

How the data were processed

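RNA-seq values of 1 WT and 1 STAP-1 KO library were used as the authors deposited them, in FPKM. The authors had mapped 75-base single reads of low-input, PCR-amplified cDNA to mm10 with TopHat 2.0.13 and Bowtie2 2.2.3 and calculated FPKM with Cuffnorm 2.2.1. The SAMtools version differs between the paper's methods and the submitters' notes (0.1.19). Gene annotation, library scaling and read totals are not given in the sources used here. The authors' 2-fold cut-off was applied to genes with at least 0.1 FPKM in both libraries, without a pseudocount. Log2 ratios used a pseudocount of 0.1 FPKM, which understates the change of low genes. Their counting intervals were computed from estimated reads without a pseudocount. Amplified reads are not independent molecules, so the intervals cover counting error only.

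Symbols were matched to GENCODE M21 (GRCm38): 20911 as written, 1910 through an older symbol and 463 not at all. Effective depth was the value at which most low FPKM values of genes with 1 transcript fell on whole reads. With 208 bases taken off each transcript, the values that came within 0.01 of whole reads were 48.3% of 323 in WT and 49.2% of 398 in STAP-1 KO. Chance gives 2% at a setting fixed in advance. Depth and the bases taken off were chosen to make this share highest, so 2% is not the chance level of the maximum. The effective depth can include a scaling by Cuffnorm, and reads of genes with several transcripts are approximate. Intervals of ratios are exact (Clopper-Pearson, 95%), those of levels exact Poisson, and that of the summed ratio is approximate. Steps were tested on simulated data in Python 3.11.15 (scipy 1.17.1, pandas 2.3.3, numpy 2.4.6).

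The members and gene lists were chosen with earlier results of these data known. By the plan, named genes were the members, Stap1, the extended network, the first 4 genes of each list (5 for targets) and the 3 genes nearest to Myc. Other named genes of the pathway lists, the other E-box factors, Pvt1, Prelid1 and Zbtb17 were chosen after their values were seen. The gene Hbb-bt of the erythroid list was not matched. The B cell marker list is not reported here as a whole.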

Additional observations from a re-analysis of the deposited data

How the results depend on the processing

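No paired analysis was possible because each genotype has 1 library. Myc and Mycn were past the cut-off with a floor of 1 FPKM, with no floor, at 1.5-fold, under upper quartile scaling and after the length correction, and at 4-fold 0 members were higher. All genes at least 2-fold higher were 10.6% with the floor of 1 FPKM and 11.5% after the length correction, and those at least 1.5-fold and 4-fold higher were 25.6% and 2.4%. The count of lower members was 1 with a floor of 1 FPKM (19.3% of all genes), which leaves out Mnt, 5 at 1.5-fold (32.8%), 2 at 4-fold (8.56%) and 3 after the length correction (18.7%). The difference in the activator to antagonist ratio was 4.15-fold without Mxd1, the highest antagonist, 4.1-fold after the length correction and 7.3-fold for Mycn alone, a choice made after seeing the data like Myc alone (6.37-fold) and geometric means (6.33-fold). It was 6.57-fold without Mga and 6.18-fold with Mycl added. Of 54 log2 ratios of members under other pseudocounts, scalings or the length correction, 45 stayed within the counting interval, 6 moved outside it in the same direction and 3 turned, all after the length correction, namely Mxi1 to 0.289, Mxd3 to -0.274 and Mga to 0.234. Scaling moved all log2 ratios by 0.04 to 0.104, the last with equal sums of FPKM, which was added after seeing the data. Of 72 list counts, 51 stayed within 1.5 times and 21 did not. Low levels limit Mnt and Mxd3, with 33.0 and 92.7 estimated reads in STAP-1 KO.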

Other observations

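Other factors that bind E-boxes, chosen after their values were seen, differed widely. Usf1 (13.7 FPKM in WT LSCs and 17.6 FPKM in STAP-1 KO LSCs), Usf2 (2.59 and 2.51 FPKM), Tfeb (5.30 and 5.50 FPKM) and Tfap4 (1.19 and 1.20 FPKM) differed by less than 2-fold. Mitf, the factor of mast cells and melanocytes, was 14.4-fold lower (12.7 and 0.878 FPKM), and its relatives Tfe3 and Tfec went apart, with 21.8 and 6.87 FPKM for Tfe3 and 0.934 and 18.2 FPKM for Tfec. Bhlhe40, a repressor of the same wider family, was 4.91-fold lower (268 and 54.6 FPKM). The mast cell and basophil markers, 9 of 10 of which were at least 2-fold lower, moved with Mitf, and their part in its level was not tested.

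The long non-coding gene Pvt1, which lies next to Myc on chromosome 15, did not share its difference, with 9.26 FPKM in WT LSCs and 6.97 FPKM in STAP-1 KO LSCs. Zbtb17, which encodes MIZ1, the partner through which MYC represses genes, had 9.19 and 10.6 FPKM.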
